A study of Mus musculus with 20 samples.

Results

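Cell cycle and proliferation genes were read in the livers of mice fed a steatohepatitis diet with or without an antioxidant. The 36 listed genes comprised 19 that act from G1 into S phase, 14 that act in G2 and mitosis, and 3 inhibitors of cyclin-dependent kinases (CDKs). They are a list of names, set by known role in the cell cycle and not by a threshold on these values. Of these, 35 were read, each from the brightest probe set that names the gene alone, among 18193 genes read in this way. Ccnb1, which encodes cyclin B1, was named by no probe set of the array annotation and has no value. The signals of 28 members lay at or above the median of all probe sets (4.21 on the log2 scale). The other 7, Cdc6, Tyms, Aurka, Aurkb, Bub1, Bub1b and Plk1, lay below it.

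The livers came from 20 male C57BL/6J mice, 5 per group and 1 array per mouse. From 7 weeks of age and for 12 weeks, the NC group was given normal chow and the CL group a steatohepatitis diet in which fat supplied 60% of the calories and which held cholesterol at 1.25% and sodium cholate at 0.5%. The CL + AX and CL + VE groups ate that same food with 0.02% of the carotenoid astaxanthin or of vitamin E mixed in. Livers were taken after a 2 h fast, and all arrays carried RNA of the whole tissue. The hepatocyte markers had summed signals of 73900 to 81400 over the 20 mice.

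In the adult liver most hepatocytes rest outside the cell cycle and can re-enter it after injury, while macrophages, lymphocytes, endothelial and stellate cells also divide in inflamed livers. D-type cyclins with CDK4 start the passage from G1 into S phase, E-type cyclins with CDK2 complete it, and E2F factors switch on the genes for replication licensing and nucleotide synthesis. In G2 and mitosis, A- and B-type cyclins with CDK1, the Aurora and Polo-like kinases and the spindle checkpoint take over, and their genes are commonly controlled through CCAAT boxes and the cell cycle homology region (CHR), a short promoter element. Messenger RNA of whole tissue does not separate a larger number of cycling cells from more RNA per cell.

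The G1/S and G2/M promoters differed in the factor binding letters they held, a description without a test. Among the 36 members, 29 matched a RefSeq promoter (GRCm38.p6, 250 bases before to 50 after a transcript start, the first window listed for a gene), and Ccnd1, Ccnd2, Ccne2, Mcm4, Ccna2, Aurkb and Foxm1 did not. The letters TTTCCCGC, TTTGGCGC, TTTCGCGC or TTTGCCGC, which E2F factors are known to bind, were searched on both strands, as were TTTGAA for the CHR and CCAAT for the CCAAT box. E2F letters stood in 7 of 15 G1/S promoters (46.7%) and in 1 of 11 G2/M promoters (9.09%), against 2.32% of 27025 promoters. CHR letters stood in 1 of 15 G1/S promoters (6.67%) and 8 of 11 G2/M promoters (72.7%), against 18.1% of all. CCAAT letters were more evenly spread, in 9 of 15 (60%) and 10 of 11 (90.9%), against 37.9% of all. E2F hits may overlap each other, and a CCAAT hit may share a base with a CHR hit. A match describes the letters in the window and does not show that a factor binds there.

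The promoters of 2 G2/M and 2 G1/S members are shown. Mki67, Cdc20 and Mcm3 hold the letters that differed between the lists, and Pcna is shown as a called G1/S gene without them. They are written from 5′ to 3′ on the strand of the gene with the start of the transcript after base 250, and capitals mark the searched letters on either strand.
Mki67, chr7:135716330-135716629, minus strand: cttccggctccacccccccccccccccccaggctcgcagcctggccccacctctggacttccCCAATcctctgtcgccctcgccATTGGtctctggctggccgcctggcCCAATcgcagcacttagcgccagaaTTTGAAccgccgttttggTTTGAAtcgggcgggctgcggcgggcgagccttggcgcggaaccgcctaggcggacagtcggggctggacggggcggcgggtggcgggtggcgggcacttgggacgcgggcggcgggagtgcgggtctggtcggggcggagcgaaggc
Cdc20, chr4:118437294-118437593, minus strand: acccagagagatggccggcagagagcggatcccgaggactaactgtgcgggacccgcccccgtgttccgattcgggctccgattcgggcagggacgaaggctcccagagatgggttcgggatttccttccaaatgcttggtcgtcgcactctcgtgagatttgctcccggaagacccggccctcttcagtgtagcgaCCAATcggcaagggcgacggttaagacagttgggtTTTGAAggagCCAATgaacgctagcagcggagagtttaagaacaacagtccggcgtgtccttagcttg
Mcm3, chr1:20820263-20820562, minus strand: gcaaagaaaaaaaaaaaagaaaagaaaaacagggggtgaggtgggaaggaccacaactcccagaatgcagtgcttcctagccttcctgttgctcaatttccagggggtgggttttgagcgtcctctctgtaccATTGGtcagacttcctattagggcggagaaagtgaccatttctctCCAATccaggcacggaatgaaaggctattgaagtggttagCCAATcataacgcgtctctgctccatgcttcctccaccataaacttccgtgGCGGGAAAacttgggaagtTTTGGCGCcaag
Pcna, chr2:132253131-132253430, minus strand: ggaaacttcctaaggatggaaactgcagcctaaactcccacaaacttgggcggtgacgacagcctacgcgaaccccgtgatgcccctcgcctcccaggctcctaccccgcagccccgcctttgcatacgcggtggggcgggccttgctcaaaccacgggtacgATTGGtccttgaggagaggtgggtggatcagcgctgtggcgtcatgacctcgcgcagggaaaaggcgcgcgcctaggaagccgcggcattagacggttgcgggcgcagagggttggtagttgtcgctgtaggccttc
The Mki67 window held 2 CHR hits and 3 CCAAT boxes, and that of Cdc20 held 1 CHR hit between 2 CCAAT boxes. The Mcm3 window held 2 E2F hits just after the start and 3 CCAAT boxes. The Pcna window held 1 CCAAT box and none of the searched E2F or CHR letters.

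The arrays of the NC mice stood apart in technical measures. For Dap, a bacterial spike-in transcript, the log2 ratio of 3' to 5' signal was 3.14 ± 0.175 (SD) in NC and means of 1.24, 1.22 and 1.32 in CL, CL + AX and CL + VE (n = 5 each), and the mouse Gapdh ratio was 0.382 to 0.779 in NC and no higher than 0.112 in any other mouse. The median signal of an array as deposited ran from 13 in an NC mouse to 27.7 in a CL + AX mouse. It was 19.4 to 24.8 in CL, 26.4 to 27.7 in CL + AX and 17 to 20.7 in CL + VE. The mouse Actb ratio was 1.01 to 1.25 in CL, 1.07 to 1.23 in CL + AX and 1.32 to 1.51 in CL + VE. The values below are log2 signals after quantile normalization, and changes are differences of group means on that scale. Diet and array quality cannot be told apart in any comparison with NC, and the CL-fed groups also differed in these measures. Without scaling, the median of all genes moved by 0.389, 0.602 and 0.193 in CL, CL + AX and CL + VE against NC, and trimmed-mean scaling and median centring moved it by up to 0.113 and by -0.173 in CL + AX. The members above the median gene numbered 24, 29 and 25 of 35 after quantile normalization and 25, 29 and 25 under each of the other scalings.

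Against NC, 24, 27 and 25 of the 35 cell cycle genes had positive changes in CL, CL + AX and CL + VE, and most of the calls were in the G1/S list. In CL, 6 of 35 members rose (Ccnd1, Ccnd2, Mcm3, Pcna, Mki67 and Cdkn1b) and none fell at an adjusted p under 0.05 by limma, beside 12% of all genes called higher and 11.3% called lower. At an unadjusted p under 0.05, 2 members were lower in CL (Ccne2 and Cdk4), and the methods' t-test also called none lower. In CL + AX, 9 rose and 2 fell, beside 12% and 11.3% of all genes. In CL + VE, 6 rose and 1 fell, beside 10.2% and 7.27% of all genes. Without scaling, 15 rose in CL, 23 in CL + AX and 8 in CL + VE and none fell by limma, and with trimmed-mean scaling 13 rose and none fell in CL + AX, so the falls there depend on the scaling. Of all 18193 genes, 4231, 4246 and 3181 were called in CL, CL + AX and CL + VE after quantile normalization. Without scaling, 5344, 7980 and 2466 were called, so the unscaled member counts are to be read beside these numbers. Of all genes called, 51.6%, 51.5% and 58.4% were higher in CL, CL + AX and CL + VE after quantile normalization. Without scaling these shares were 96%, 97.4% and 88.4%. Leaving out a mouse gave 5 to 14 calls in CL + AX, and the number of all genes called in those fits is not given here. Few members were thus called in CL and CL + VE, not far from the background share. The same 6 rose in all 3 comparisons, which share the NC mice, and 24 members were called in none.

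The median log2 change of the 35 members was 0.423 in CL, 0.466 in CL + AX and 0.483 in CL + VE, against medians over all genes of -0.0362, -0.0246 and 0.00164. For the G1/S list it was 0.307, 0.194 and 0.307, and for the G2/M list 0.741, 1.04 and 0.746. The called G2/M genes numbered 1, 3 and 1 of 13, and the called G1/S genes 4 higher in CL, 5 higher and 2 lower in CL + AX, and 4 higher and 1 lower in CL + VE, of 19. Positive fold changes were seen for 11, 11 and 12 of the 13 G2/M genes and for 11, 14 and 11 of the 19 G1/S genes. The difference between the lists was not tested.

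**Figure D1:**
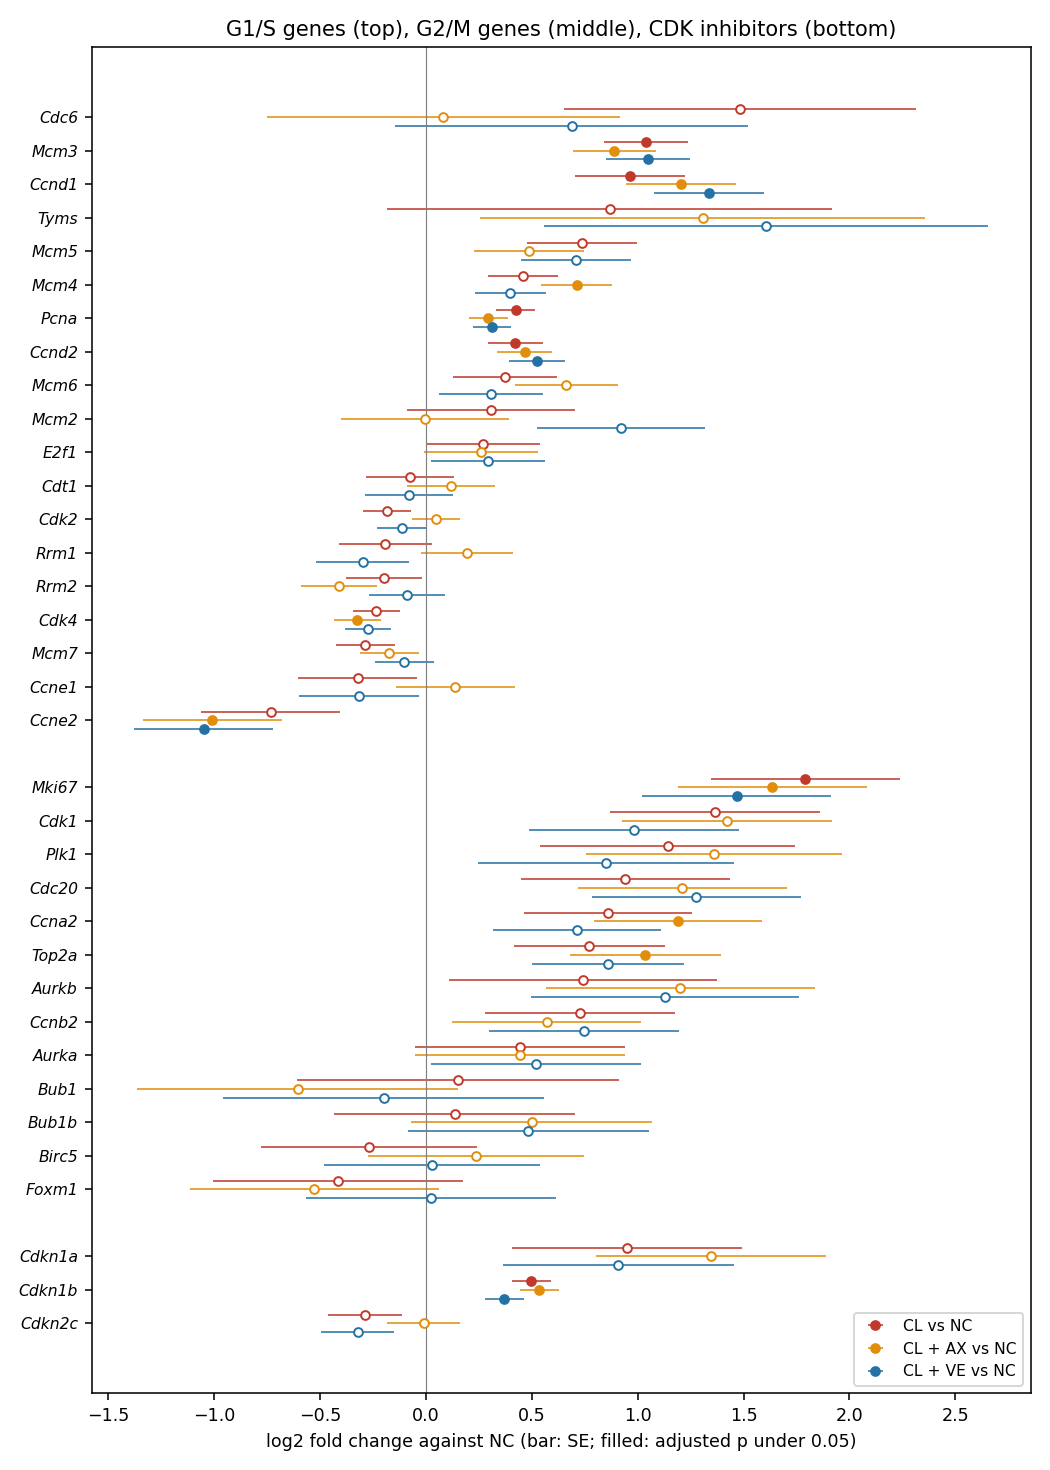
Log2 fold changes against NC (horizontal axis, bars show the SE) of 35 cell cycle genes in CL, CL + AX and CL + VE, with filled points for an adjusted p under 0.05. The G2/M genes lie mostly to the right of 0 with wide bars, and 6 genes are filled in all 3 groups.

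Among the D-type cyclins, Ccnd1 (cyclin D1, GRCm38.p6 chr7:144929931-144939831) had log2 signals of 6.89, 6.95, 7.24, 7.08 and 7.34 in the NC mice, 7.72, 8.92, 8.05, 7.82 and 7.83 in the CL mice, 8.27, 8.87, 8.09, 8.36 and 7.93 in the CL + AX mice and 8.57, 8.02, 7.58, 8.62 and 9.40 in the CL + VE mice. All 15 CL-fed mice lay above the 5 NC mice. The fold change against NC was 0.96 (SE 0.259, adjusted p = 0.0112) in CL, 1.21 (adjusted p = 0.00199) in CL + AX and 1.34 (adjusted p = 0.00122) in CL + VE, or 1.95-, 2.3- and 2.53-fold. The 2 dimmer Ccnd1 probe sets changed the same way, by 1.30 and 1.28 in CL. By the methods' t-test the Ccnd1 call was kept in CL + AX and lost in CL and CL + VE.

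Ccnd2, which encodes cyclin D2 (chr6:127125162-127152188), had log2 signals of 6.73, 6.23, 6.94, 6.79 and 6.75 in the NC mice, 7.05, 7.31, 7.05, 7.09 and 7.04 in the CL mice, 7.20, 7.46, 6.82, 7.16 and 7.13 in the CL + AX mice and 7.08, 7.13, 7.07, 7.34 and 7.44 in the CL + VE mice. The CL and CL + VE mice lay above all NC mice, and CL + AX mouse 3 lay inside the NC range. The rises were smaller, 0.42 in CL (SE 0.13, adjusted p = 0.0266), 0.47 in CL + AX (adjusted p = 0.0143) and 0.52 in CL + VE (adjusted p = 0.00859). The CL call was lost without CL mouse 2 or NC mouse 2, and the CL + AX call without CL + AX mouse 2. All 3 Ccnd2 calls were lost by the methods' t-test. The CL and CL + AX calls were also lost from only the 10 arrays compared, and the CL + AX call with the mean of all probe sets.

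Of the E-type cyclins, Ccne2 was lower in CL + AX and CL + VE and Ccne1 passed in no comparison. Ccne2 (cyclin E2, chr4:11190433-11204779) had log2 signals of 5.43, 5.98, 4.43, 4.54 and 4.20 in the NC mice, 3.96, 4.33, 3.58, 4.68 and 4.36 in the CL mice, 3.68, 3.74, 3.79, 4.16 and 4.16 in the CL + AX mice and 4.22, 3.45, 3.50, 3.68 and 4.47 in the CL + VE mice, close to the median of all probe sets. NC mice 1 and 2 were the highest of the 20 mice, and the CL + AX mice lay just below the lowest NC mouse. Ccne2 fell by 1.01 in CL + AX (SE 0.328, adjusted p = 0.036) and by 1.05 in CL + VE (adjusted p = 0.0363), and in CL the change was -0.73 (adjusted p = 0.138). Both calls were lost without NC mouse 1 and without NC mouse 2, the CL + AX call also without CL + AX mouse 1, 2 or 3, and the CL + VE call also without CL + VE mouse 2, 3 or 4. Ccne1, which encodes cyclin E1, changed by -0.32 in CL, 0.14 in CL + AX and -0.32 in CL + VE, and passed in none.

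Cdk4, the kinase partner of the D-type cyclins (chr10:127063535-127067288), had log2 signals of 7.77, 7.61, 8.0, 7.56 and 7.35 in the NC mice, 7.45, 7.63, 7.35, 7.34 and 7.35 in the CL mice, 7.23, 7.41, 7.45, 7.36 and 7.22 in the CL + AX mice and 7.28, 7.45, 7.62, 7.37 and 7.20 in the CL + VE mice. The 4 groups overlapped, with NC mouse 3 the highest. The brightest probe set fell by 0.32 in CL + AX (SE 0.11, adjusted p = 0.044), and its change was -0.23 in CL (adjusted p = 0.16). The 3 Cdk4 probe sets, all bright, did not share a direction. In CL against NC the dimmest of them was higher by 0.48 (adjusted p = 0.0093) and the middle one changed by -0.44 (adjusted p = 0.0022). Without scaling, the CL + AX change of the brightest probe set turned to 0.29, and that call was kept in 7 of the 20 fits that left out a mouse, so no direction is given for the gene. Cdk2, the partner of cyclins E and A, changed by -0.18, 0.05 and -0.12 and E2f1, an activating E2F factor, by 0.27, 0.26 and 0.29 in CL, CL + AX and CL + VE, with no call.

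The MCM2 to MCM7 proteins form the helicase loaded at replication origins, and their genes did not move as a block. Mcm3 (chr1:20802966-20820312) had log2 signals of 4.85, 4.26, 5.21, 4.67 and 4.69 in the NC mice, 5.62, 6.22, 5.48, 5.95 and 5.61 in the CL mice, 5.81, 5.77, 5.03, 5.92 and 5.60 in the CL + AX mice and 5.97, 5.60, 5.62, 5.82 and 5.92 in the CL + VE mice. All CL-fed mice except CL + AX mouse 3 lay above the NC mice. Mcm3 rose by 1.04 in CL (SE 0.197, adjusted p = 0.000628), 0.89 in CL + AX (adjusted p = 0.00256) and 1.05 in CL + VE (adjusted p = 0.000941), close to 2.06-, 1.85- and 2.07-fold. The calls rest on a probe set of the _s_at kind, which may match related transcripts. They were lost when sets of the _s_at and _x_at kinds were left out or when the 5 Mcm3 probe sets, 3 of them dim, were averaged. The other bright one was also higher in CL, by 1.35 (adjusted p = 0.0235), but was among the sets left out, so it carries the same limit.

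Mcm4 (chr16:15623897-15637400) had log2 signals of 5.83, 5.82, 5.38, 5.92 and 6.13 in the NC mice, 6.23, 6.05, 6.06, 6.72 and 6.31 in the CL mice, 6.62, 6.30, 6.58, 6.29 and 6.85 in the CL + AX mice and 6.26, 6.22, 5.78, 6.51 and 6.30 in the CL + VE mice. The CL + AX mice all lay above the NC mice, and the CL and CL + VE groups overlapped with NC. The rise of 0.71 in CL + AX passed (SE 0.166, adjusted p = 0.00392), and the changes of 0.46 in CL (adjusted p = 0.0616) and 0.40 in CL + VE (adjusted p = 0.126) did not. Mcm4 was read from a probe set of the _x_at kind, and its other probe set gave 0.38 in CL + AX (adjusted p = 0.219). Of the remaining helicase genes, Mcm5 changed by 0.74, 0.48 and 0.71, Mcm6 by 0.37, 0.66 and 0.31, Mcm2 by 0.31, -0.0046 and 0.92, and Mcm7 by -0.29, -0.17 and -0.10 in CL, CL + AX and CL + VE, with no call. Among the loading factors, Cdc6 was dim and changed by 1.48, 0.08 and 0.69, and Cdt1 by -0.08, 0.12 and -0.08, with no call.

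Pcna encodes the sliding clamp of the replicative polymerases (chr2:132249286-132253180) and was the brightest member. Its log2 signals were 9.02, 8.90, 8.98, 9.09 and 9.06 in the NC mice, 9.27, 9.64, 9.56, 9.36 and 9.33 in the CL mice, 9.33, 9.44, 9.01, 9.45 and 9.30 in the CL + AX mice and 9.34, 9.20, 9.25, 9.26 and 9.56 in the CL + VE mice. All CL-fed mice except CL + AX mouse 3 lay above the NC mice, which spanned only 8.90 to 9.09. The rises were small, 0.42 in CL (SE 0.0909, adjusted p = 0.00197), 0.29 in CL + AX (adjusted p = 0.0271) and 0.31 in CL + VE (adjusted p = 0.0246), or 1.34-, 1.23- and 1.24-fold. With median centring the calls in CL + AX (change 0.0080) and CL + VE were lost, as they were without NC mouse 2 or 3, the CL + AX call also without CL + AX mouse 1, 2 or 4 and the CL + VE call also without CL + VE mouse 5. None of the 3 nucleotide synthesis genes passed. Rrm2, the regulated subunit of ribonucleotide reductase, changed by -0.20, -0.41 and -0.09, Rrm1, its large subunit, by -0.19, 0.19 and -0.30, and the dim Tyms, thymidylate synthase, by 0.87, 1.31 and 1.61 with an SE of 1.05, too wide to place it above or below Pcna.

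**Figure D2:**
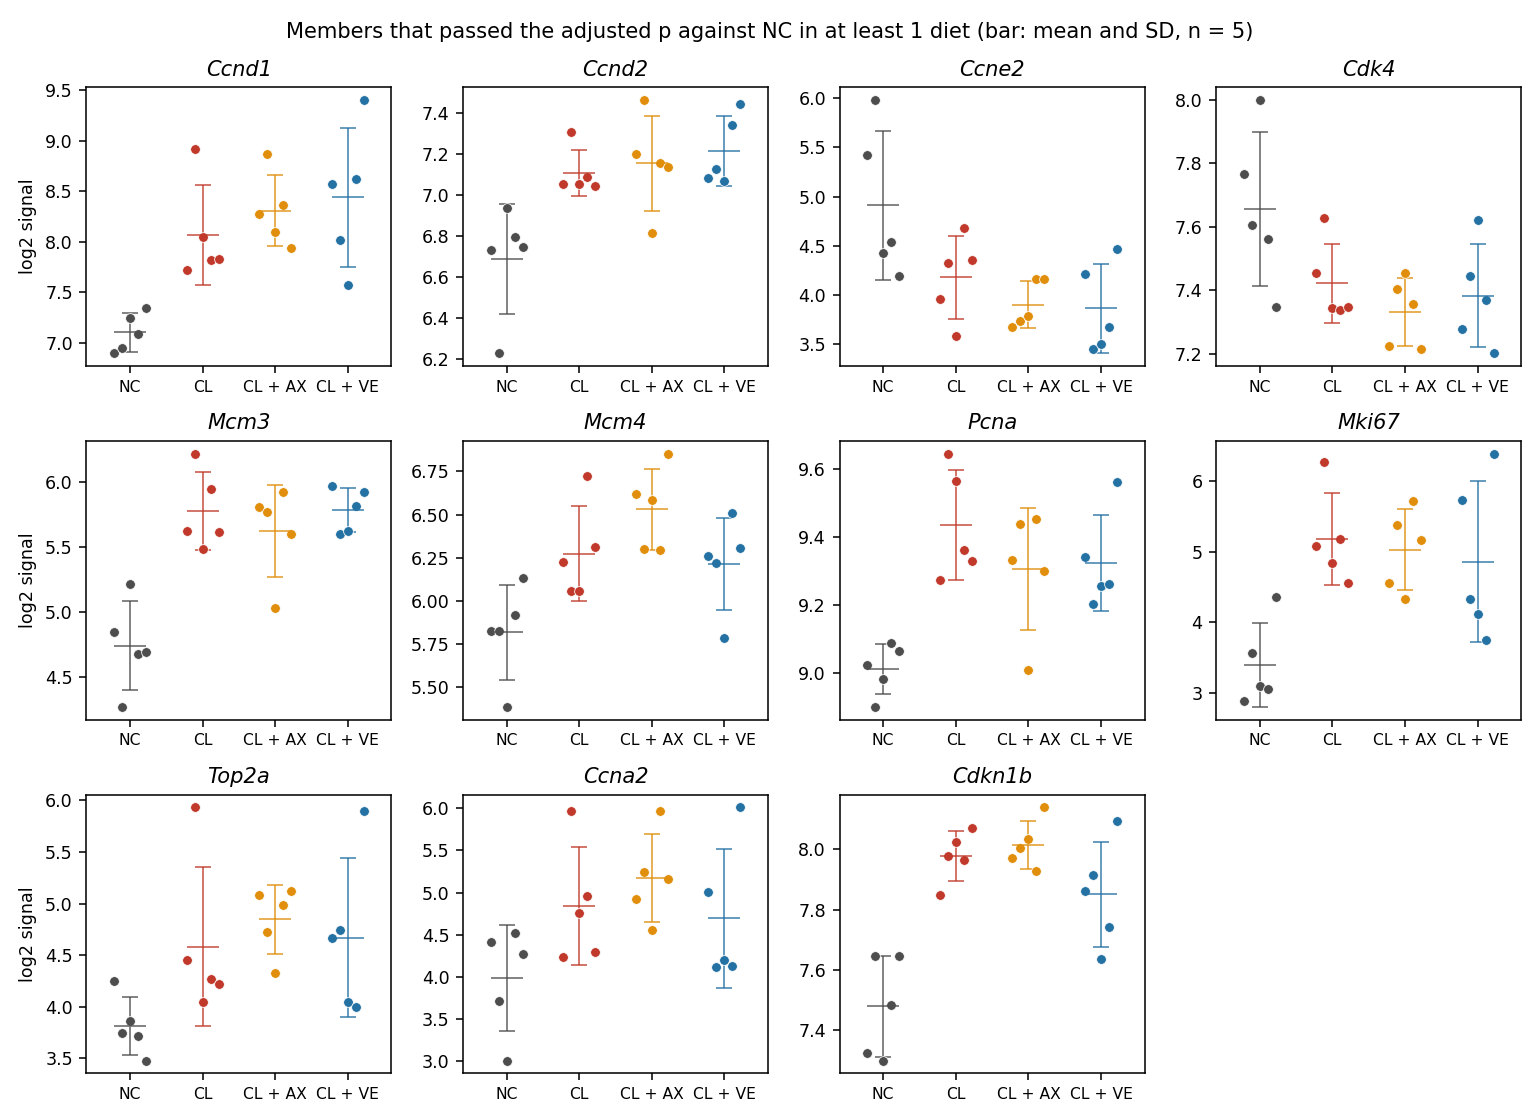
Log2 signal (vertical axis) of each mouse for the 11 members called against NC in at least 1 diet, with points for mice in replicate order and bars for the mean and SD of 5 mice. The CL-fed mice lie above the NC mice for Ccnd1, and a few mice stand high for Mki67, Top2a and Ccna2.

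In the G2/M list, Mki67 had the largest fold changes against NC in all 3 groups. It encodes the Ki-67 protein of dividing cells (chr7:135689784-135716450), and its CHR hits are shown above. Its log2 signals were 2.89, 3.57, 3.10, 3.06 and 4.37 in the NC mice, 5.09, 6.27, 4.84, 5.18 and 4.56 in the CL mice, 4.56, 5.38, 4.33, 5.72 and 5.17 in the CL + AX mice and 5.73, 4.33, 4.12, 3.75 and 6.39 in the CL + VE mice. The CL mice lay above all NC mice, while CL + AX mouse 3 and CL + VE mice 2, 3 and 4 lay below NC mouse 5. Mki67 rose by 1.79 in CL (SE 0.447, adjusted p = 0.00665), 1.64 in CL + AX (adjusted p = 0.0127) and 1.47 in CL + VE (adjusted p = 0.0317), or 3.46-, 3.11- and 2.76-fold. The CL + VE call was lost without CL + VE mouse 1 or 5 or NC mouse 1, 3 or 4, and the CL and CL + AX calls were kept with any mouse left out. It was also lost in CL + VE with an offset of 16 on the linear signal and from only the 10 arrays compared. The methods' t-test and a variance prior without a trend lost the CL + VE call as well.

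Top2a, the topoisomerase that untangles replicated chromosomes (chr11:98992947-99024199), had log2 signals of 4.25, 3.75, 3.86, 3.72 and 3.48 in the NC mice, 4.45, 5.93, 4.04, 4.27 and 4.22 in the CL mice, 5.09, 4.72, 4.32, 4.99 and 5.12 in the CL + AX mice and 4.67, 4.75, 4.05, 3.997 and 5.90 in the CL + VE mice. All CL + AX mice lay above the NC mice, and CL mouse 2 and CL + VE mouse 5 were the highest of the 20. The rise of 1.04 in CL + AX was just past the threshold (SE 0.357, adjusted p = 0.048), and the changes of 0.77 in CL (adjusted p = 0.153) and 0.86 in CL + VE (adjusted p = 0.124) were not. The other 2 Top2a probe sets, both dim, changed by -0.05 and -0.64 in CL + AX and did not pass. The mean over the 3 probe sets changed by 0.12, and the call was lost with that mean and with median centring. The Top2a call was kept in 7 of the 20 fits that left out a mouse and was lost without NC mouse 2, 3, 4 or 5, CL mouse 1, 4 or 5, CL + AX mouse 1, 2, 4 or 5, or CL + VE mouse 1 or 2.

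Ccna2, which encodes cyclin A2 (chr3:36564865-36573038), had log2 signals of 4.41, 3.71, 2.999, 4.51 and 4.27 in the NC mice, 4.24, 5.96, 4.75, 4.95 and 4.29 in the CL mice, 4.93, 5.24, 4.55, 5.97 and 5.16 in the CL + AX mice and 5.005, 4.11, 4.20, 4.13 and 6.01 in the CL + VE mice. The CL + AX mice lay above all NC mice, and CL mouse 2, CL + AX mouse 4 and CL + VE mouse 5 reached about the same height. It rose 2.28-fold in CL + AX (log2 SE 0.397, adjusted p = 0.0408), with log2 changes of 0.86 in CL (adjusted p = 0.152) and 0.71 in CL + VE (adjusted p = 0.277). Its second probe set also rose in CL + AX, by 0.91 (adjusted p = 0.0499). The first call was lost without NC mouse 2 or 3 or CL + AX mouse 1, 2, 4 or 5.

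Cdc20, the activator of the anaphase-promoting complex (chr4:118432901-118437343), passed in no comparison. Its log2 signals were 4.91, 4.13, 4.82, 3.99 and 4.93 in the NC mice, 5.08, 7.497, 5.38, 4.97 and 4.56 in the CL mice, 4.92, 6.197, 5.03, 6.88 and 5.81 in the CL + AX mice and 5.58, 5.10, 5.24, 5.72 and 7.51 in the CL + VE mice. CL mouse 2 and CL + VE mouse 5 stood above 7, CL + AX mouse 4 followed, and the other CL and CL + VE mice stayed below 6, though all CL + VE mice lay above the NC mice. The fold changes were 0.94 in CL (SE 0.493, adjusted p = 0.218), 1.21 in CL + AX (adjusted p = 0.101) and 1.28 in CL + VE (adjusted p = 0.0953).

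Cdk1, the mitotic kinase, changed by 1.37 in CL (adjusted p = 0.0611), 1.42 in CL + AX (adjusted p = 0.0514) and 0.98 in CL + VE (adjusted p = 0.222). NC mouse 4 had a Cdk1 log2 signal of 1.48 where the other NC mice had 4.20 to 5.33, and all CL + AX mice lay above that range. Ccnb2, which encodes cyclin B2, changed by 0.73, 0.57 and 0.75, and Plk1, the Polo-like kinase, by 1.14, 1.36 and 0.85, with no call. The Aurora kinase genes Aurka (0.44, 0.44 and 0.52) and Aurkb (0.74, 1.20 and 1.13) and the spindle checkpoint genes Bub1 (0.15, -0.61 and -0.20) and Bub1b (0.14, 0.50 and 0.48) were dim and passed in none. Birc5 (survivin) changed by -0.27, 0.24 and 0.03, and Foxm1, a transcription factor of G2/M genes, by -0.42, -0.53 and 0.02.

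Of the 3 CDK inhibitors, Cdkn1b rose in each CL-fed group and the others did not pass. Cdkn1b, which encodes p27 (chr6:134920401-134925525), had log2 signals of 7.32, 7.64, 7.30, 7.48 and 7.64 in the NC mice, 7.85, 7.98, 8.03, 7.96 and 8.07 in the CL mice, 7.97, 8.003, 8.03, 7.93 and 8.14 in the CL + AX mice and 7.86, 7.91, 7.64, 7.74 and 8.10 in the CL + VE mice. The CL and CL + AX mice lay above all NC mice, and CL + VE mouse 3 lay just inside the NC range. It rose by 0.50 in CL (SE 0.0924, adjusted p = 0.00052), 0.54 in CL + AX (adjusted p = 0.000243) and 0.37 in CL + VE (adjusted p = 0.00904), and the calls were lost when its probe sets were averaged. The CL + VE call was also lost from only the 10 arrays compared and by the methods' t-test. Cdkn1a, which encodes p21, a target of p53 (chr17:29090979-29100722), had log2 signals of 7.14, 6.50, 7.40, 7.99 and 9.38 in the NC mice, 6.84, 9.82, 8.14, 10.03 and 8.33 in the CL mice, 9.22, 9.13, 8.32, 9.67 and 8.79 in the CL + AX mice and 8.01, 8.08, 9.04, 7.82 and 10.01 in the CL + VE mice. Its groups overlapped over a wide range, and its changes of 0.95, 1.35 and 0.91 had an SE of 0.544 and did not pass. Cdkn2c, which encodes p18, changed by -0.29, -0.01 and -0.32. Without scaling, the CL + AX change of Cdkn2c turned to 0.60, so its direction is not given.

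Mouse by mouse, a few livers held the highest values of many G2/M genes. The level of a mouse was taken as the median over a list of the log2 signal minus the NC mean of each gene. The G2/M level was 0.18, -0.06, 0.56, 0.20 and -0.04 in the NC mice, 0.26, 2.07, 0.36, 0.48 and 0.16 in CL, 0.92, 1.20, 0.43, 1.38 and 1.18 in CL + AX, and 1.03, 0.55, 0.24, 0.19 and 1.89 in CL + VE. CL mouse 2 and CL + VE mouse 5 stood far above their groups, whereas 4 of 5 CL + AX mice lay near 1. The group medians were 0.359 in CL, 1.18 in CL + AX and 0.549 in CL + VE, and the groups overlapped.

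The G1/S level was 0.11, -0.03, 0.14, -0.03 and -0.06 in the NC mice, 0.29, 0.60, 0.24, 0.03 and -0.10 in CL, 0.32, 0.18, 0.13, 0.41 and -0.03 in CL + AX, and 0.33, -0.08, 0.00, 0.25 and 0.56 in CL + VE. CL mouse 2, CL + AX mouse 4 and CL + VE mouse 5 led their groups in both lists, over a smaller range for G1/S. CL mouse 2 had the highest value of its group for 12 of 13 G2/M and 9 of 19 G1/S members. For CL + AX mouse 4 the counts were 9 and 6, and for CL + VE mouse 5 they were 9 and 10. The share of all genes highest in each of these mice is not given here, so the counts are not read as particular to the members. The array of CL mouse 2 had the lowest correlation with the rest of its group (r = 0.979, others 0.9814 to 0.9879). That of CL + VE mouse 5 was also the lowest of its group (0.9762, others 0.9829 to 0.9869). CL + AX mouse 4 was not the lowest of its group (0.9863, against 0.9818 for mouse 3). Leaving out CL mouse 2 and CL + VE mouse 5 together, a choice made after seeing the data, gave 5 called members in CL, 14 in CL + AX (with Cdk1, Mcm6 and Cdc20 added) and 5 in CL + VE. The number of all genes called in that fit is not given here.

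**Figure D3:**
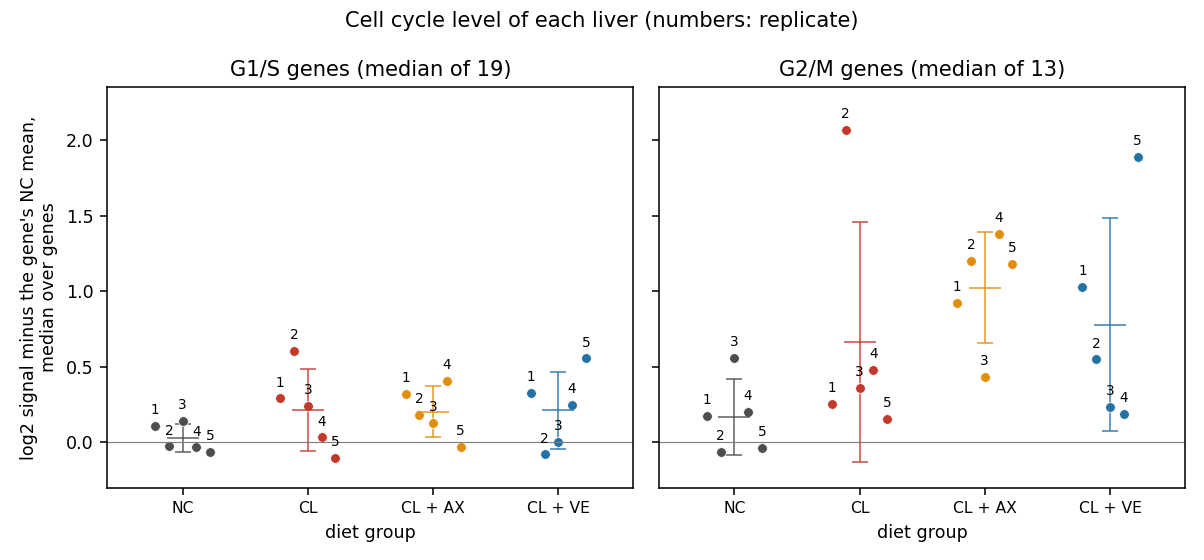
Level of each mouse (vertical axis, log2 relative to NC) for the G1/S and the G2/M genes in the 4 diet groups, with replicate numbers beside the points and bars for the mean and SD. CL mouse 2 (2.07) and CL + VE mouse 5 (1.89) stand apart in the G2/M panel, and 4 CL + AX mice lie between 0.92 and 1.38.

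Macrophage, stellate cell and lymphocyte markers were all highest in CL mouse 2, and endothelial and bile duct markers were highest in other mice. Below CL mouse 2 the order differed between the lists. The summed signal of 10 macrophage markers was 1670 to 4800 in NC, 7860 to 18300 in CL, 6890 to 15500 in CL + AX and 5940 to 15000 in CL + VE, with Itgam below the median signal in every group. The 5 highest sums of the 20 mice were those of CL mouse 2 (18300, G2/M level 2.07), CL + AX mouse 4 (15500, level 1.38), CL + VE mouse 5 (15000, level 1.89), CL + AX mouse 2 (14600, level 1.20) and CL + VE mouse 1 (13500, level 1.03). Every mouse with a G2/M level above 1 except CL + AX mouse 5 (10500, level 1.18) was among these 5. Within CL, the other 4 mice had sums of 7860 to 10700 and levels of 0.16 to 0.48.

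Stellate cell and fibroblast markers were likewise highest in CL mouse 2 (10800) and CL + VE mouse 5 (10500), with ranges of 2300 to 3590 in NC, 5590 to 10800 in CL, 3310 to 9870 in CL + AX and 4030 to 10500 in CL + VE. Col1a1 and Timp1 lay below the median signal in NC. Lymphocyte markers summed to 215 to 326 in NC, 605 to 1180 in CL, 422 to 1010 in CL + AX and 506 to 996 in CL + VE, and 9 of 11 lay below the median signal in NC and 5 of 11 in each CL-fed group. CL mouse 2 (1180), CL + AX mouse 1 (1010) and CL + VE mouse 1 (996) had the highest lymphocyte sums, and CL + VE mouse 5 (931) ranked 5 of 20. The part of these cells in the cell cycle values was not tested. CL + VE mouse 5 also had a Dap log2 ratio of 2.26, the highest among the CL-fed mice.

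**Figure D4:**
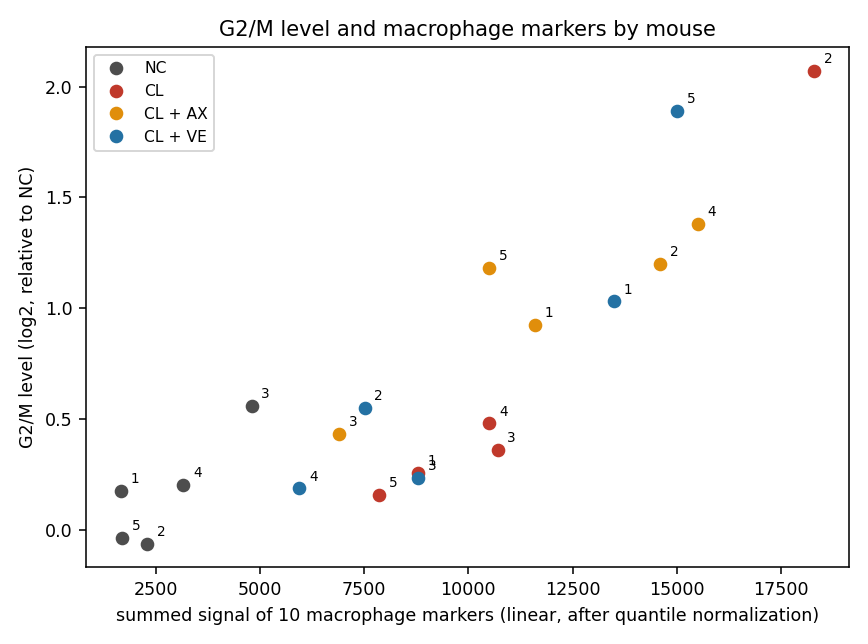
G2/M level of each mouse (vertical axis, log2 relative to NC) against the summed linear signal of 10 macrophage markers (horizontal axis), with colours for diet and numbers for replicates. The NC mice lie at the lower left, and CL mouse 2 (18300, level 2.07) lies at the upper right.

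Against NC, 8 of 10 macrophage markers rose in each CL-fed group, beside 12%, 12% and 10.2% of all genes in CL, CL + AX and CL + VE. Stellate cell and fibroblast markers rose for 8, 8 and 7 of 10, lymphocyte markers for 6, 5 and 4 of 11, endothelial markers for 6, 3 and 5 of 8 (summed signal 873 to 1810 in NC and 1720 to 2620 in the CL-fed mice) and bile duct markers for 1 of 6 in each group (summed signal 85.6 to 157 in NC and 121 to 499 in the CL-fed mice, with Krt7 and Cftr below the median signal throughout). By mouse, endothelial markers ranked 6 of 20 in CL mouse 2 (2160), 11 in CL + AX mouse 4 (1980) and 16 in CL + VE mouse 5 (1720). Bile duct markers were highest in CL + VE mouse 4 (499), whose G2/M level was 0.19, followed by CL mouse 2 (283) and CL + VE mouse 5 (238). Of 9 hepatocyte markers, 2, 1 and 1 fell, beside 11.3%, 11.3% and 7.27% of all genes. For lists this short, the bile duct and hepatocyte counts are not far from those shares.

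No member passed between the CL-fed groups. By limma, 0 of 35 members passed in CL + AX against CL, in CL + VE against CL or in CL + AX against CL + VE. The methods' t-test called 0 members as well. Over all genes, 0% passed by limma in either direction after quantile normalization. That share depended on the scaling. For CL + AX against CL + VE, 686 genes passed without scaling and 1122 with median centring. At an unadjusted p under 0.05 no member was higher or lower in CL + AX against CL, beside 4.03% and 4.02% of all genes, or in CL + VE against CL, beside 4.85% and 2.7%. In CL + AX against CL + VE, Rrm1 was higher by 0.49 and Mcm2 lower, by a change of -0.93, at an unadjusted p of 0.0345 and 0.0287, beside 3.66% higher and 6.59% lower over all genes.

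The intervals around these differences were wide for G2/M genes. In CL + AX against CL, Mki67 differed by -0.16 (95% interval -1.08 to 0.77), Top2a by 0.26 (-0.48 to 1.004), Ccna2 by 0.33 (-0.49 to 1.15) and Cdc20 by 0.27 (-0.75 to 1.29). In CL + VE against CL, Mki67 differed by -0.32 (-1.25 to 0.60) and Cdc20 by 0.33 (-0.69 to 1.36). Both Mki67 intervals reach past a halving and well above 0, so the data do not show that the groups were alike. For Pcna and Cdkn1b the intervals were narrow, from -0.32 to 0.06 and from -0.15 to 0.23 in CL + AX, and from -0.30 to 0.08 and from -0.32 to 0.06 in CL + VE. The median difference of the 35 members was 0.115 in CL + AX and 0.0067 in CL + VE against CL, with 0.00853 and 0.0313 over all genes.

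**Figure D5:**
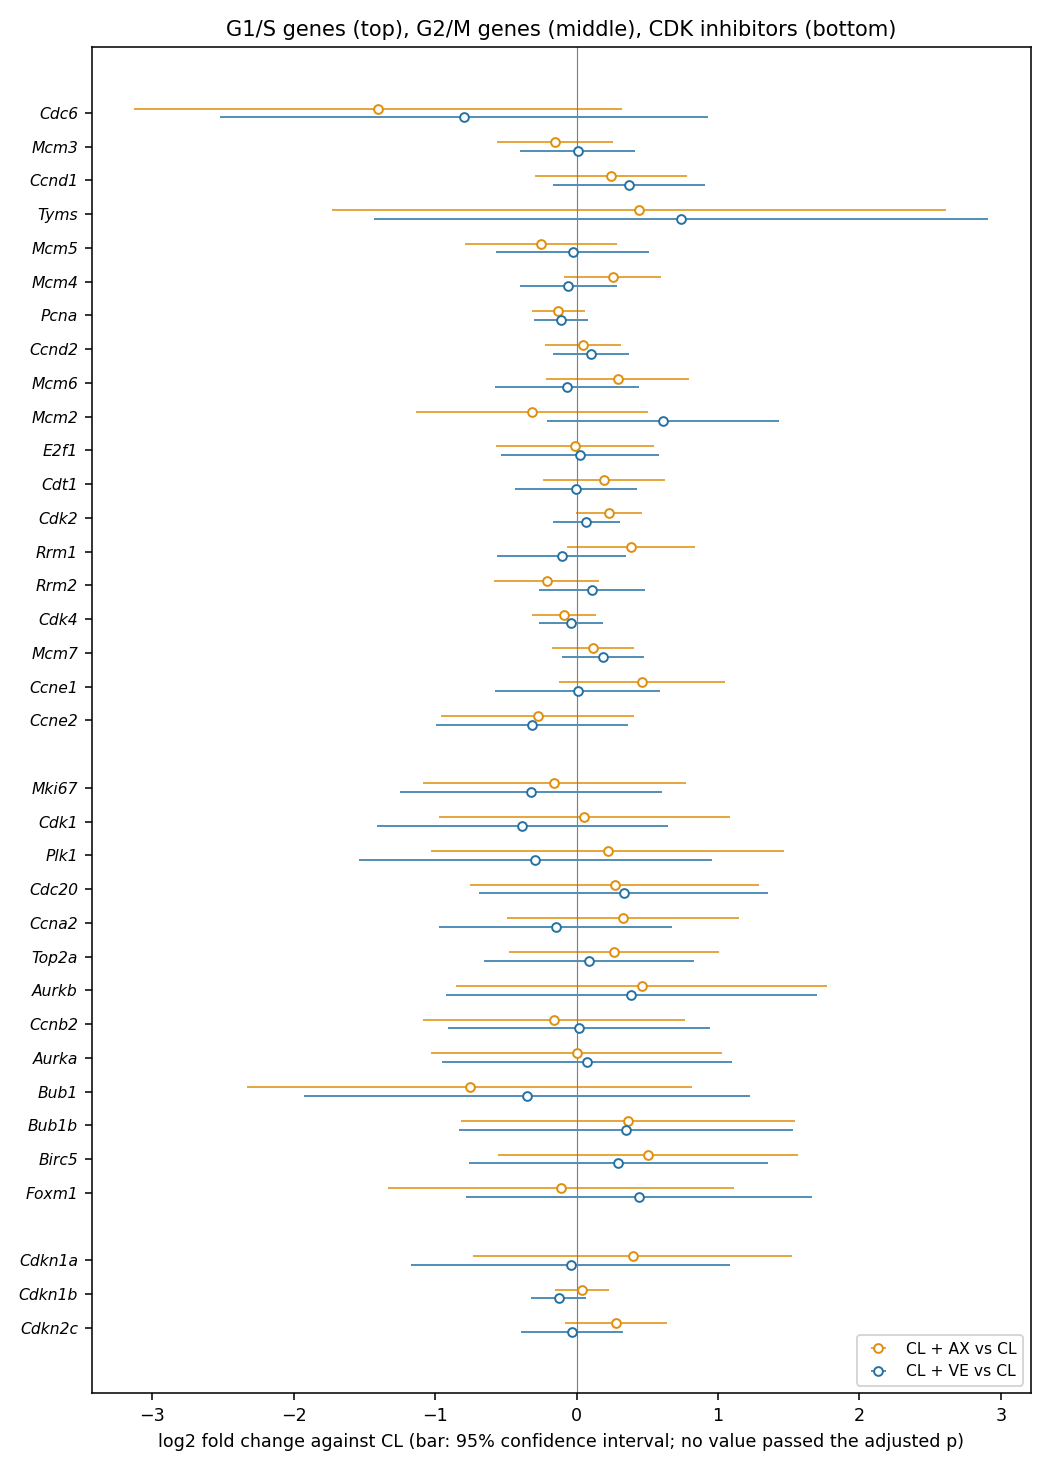
Log2 fold changes against CL (horizontal axis, bars show 95% confidence intervals) of 35 cell cycle genes in CL + AX and CL + VE. Points scatter around 0 and none passed the adjusted p, with intervals of -1.08 to 0.77 for Mki67 in CL + AX.

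The further lists are read against the shares of all genes called, 12% higher and 11.3% lower in CL and in CL + AX and 10.2% and 7.27% in CL + VE. Of 25 further S phase genes, 2 rose and 2 fell in each CL-fed group against NC, near or below those shares. Mcm10, a replication initiation factor, fell by 1.23 in CL (SE 0.182, adjusted p = 5.17e-05), by 1.57 in CL + AX and by 1.27 in CL + VE, and 2 of its 3 probe sets shared that sign. Tk1, the salvage thymidine kinase, fell by 0.84, 1.43 and 0.83, and Pola1, the catalytic subunit of DNA polymerase alpha, rose by 0.97, 1.005 and 0.83 on its brightest probe set, with the opposite sign on its other one. Slbp, the histone mRNA binding protein, rose in CL by 0.25, and Prim1, a primase subunit, rose in CL + AX by 0.64 and in CL + VE by 0.61.

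Of 38 further mitosis genes, 4 rose and 1 fell in CL, 6 rose and 1 fell in CL + AX, and 1 rose in CL + VE, not far from the shares of all genes called higher in CL and CL + AX and below it in CL + VE. Cks2, a CDK1-binding protein, rose in all 3 groups, by 0.47 (adjusted p = 0.00187), 0.45 and 0.49. Mad2l1, a spindle checkpoint gene, and Cdca8, a subunit of the chromosomal passenger complex, rose in CL by 0.90 and 0.83, and Kif2c, a mitotic kinesin, fell by 0.97. In CL + AX, Cenpa, the centromeric histone, rose by 0.69, Nek2, a centrosome kinase, by 0.66 and the dim kinetochore gene Nuf2 by 3.03 from a mean log2 signal of 0.45 in NC. For Kif2c and Nek2, 2 of 4 probe sets shared the sign. Incenp (0.78, adjusted p = 0.0604) and Pbk (2-fold, adjusted p = 0.064) led the list in CL + VE without passing, after Cks2.

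Of 27 further regulators, 4 rose and 3 fell in CL, 5 and 3 in CL + AX, and 3 and 3 in CL + VE, near the shares of all genes in CL and CL + VE. E2f8, a repressing E2F factor, fell by 1.66 in CL (SE 0.286, adjusted p = 0.000251), by 1.95 in CL + AX and by 1.42 in CL + VE. Ccnd3, the third D-type cyclin, fell by 0.70 (adjusted p = 9.72e-05), 0.59 and 0.49, so the D-type cyclins did not move together. Wee1, the kinase that restrains CDK1, fell by 1.38 in CL and by 1.34 in CL + AX. Its mean log2 signal in CL + VE was 6.627, also below the 7.579 of NC. Rbl1, the retinoblastoma relative p107, rose by 1.10 in CL and by 0.96 in CL + VE, and Fbxw7, a ubiquitin ligase subunit that targets cyclin E, rose by 0.49 in CL + AX and 0.44 in CL + VE. The sign was shared by 2 of 4 probe sets of Rbl1 and by 1 of 2 of Fbxw7. The changes of Rbl1 in CL + AX and of Fbxw7 in CL are not given here. Neither rise is therefore called particular to the groups named.

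Of 17 p53 target genes, 7 rose and 2 fell in CL, 7 and 1 in CL + AX, and 6 and 1 in CL + VE. Ccng1 (cyclin G1) rose by 0.74 (SE 0.1, adjusted p = 1.97e-05), 0.81 and 0.71, and Pmaip1, the apoptosis gene for NOXA, by 1.66, 1.81 and 1.47. Plk2, a stress-induced relative of Plk1, rose by 1.35 in CL and 1.93 in CL + AX on its brightest probe set, with the opposite sign on its other one. The mean log2 signal of that brightest set in CL + VE was 7.665, also above the 6.641 of NC. Eda2r, a death receptor gene, had 1 of the 4 smallest p of this list in CL + VE and was called higher there. Its probe set was dim, with a mean log2 signal of 1.89 in NC, below the median of all probe sets. Its changes in CL and CL + AX are not given here, so the rise is not called particular to CL + VE. Trp53inp1, a stress-induced p53 partner, fell by 0.92, 1.05 and 0.93. In none of these 4 further lists did a gene pass between the CL-fed groups.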

How the data were processed

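Liver RNA of each mouse was labelled and hybridized to 1 Affymetrix whole-genome mouse array. The authors computed MAS5 intensity signals from the probes, and the deposited table holds 1 linear intensity for each of 45101 probe sets, from 0.01395 to 18760, without detection calls. The values differed in overall level between arrays. The 64 control probe sets were left out. The other 45037 were log2 transformed, quantile normalized and fitted with limma 3.58.1 (R 4.3.3). A single model held the 4 groups, which left 16 residual degrees of freedom, and the variance prior followed the mean signal. Adjusted p is the Benjamini-Hochberg value over every probe set tested, called under 0.05, and every adjusted p in the text comes from this fit. The median SE of a log2 fold change was 0.3629, so the 5 arrays per group limit the precision. Of the probe sets, 34945 name 1 gene, 932 several and 9160 none.

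A gene was read from the brightest probe set that names it alone. Gene names came from the platform annotation and positions from RefSeq. The members and all lists were chosen with earlier results of these data known, and the named genes are all members and up to 4 genes of each further list with the smallest p in a comparison. Ccnb1 and other listed genes without a probe set of their own were left out, and some items are not reported here. The fit was tested on simulated data. No array was a copy of another (highest correlation 0.9362). The labels do not say that a replicate number links mice of different groups. Alternatives covered the scaling, an offset of 16 on the linear signal, a filter on dim probe sets, the choice of probe set, the arrays in the fit, the methods' t-test, the variance prior, a replicate block and each array left out.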

Additional observations from a re-analysis of the deposited data

Results flagged for a closer look

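Among 140 sets of 5 mice (35 members in 4 groups), 12 held a mouse whose gap to the nearest of the other 4 took up an unusually large part of the range of the 5. Chance gives about 1 in 20 for a single set, and these sets share mice, so the 12 were not compared with it. Of these, 5 were high values of CL mouse 2, for Ccnd1 (log2 signal 8.917, others 7.717 to 8.05), Ccnd2 (7.307, others 7.041 to 7.086), Top2a (5.932, others 4.043 to 4.449), Ccnb2 (6.107, others 4.192 to 4.674) and Cdc20 (7.497, others 4.562 to 5.376). CL + VE mouse 5 was high for Rrm2 (7.15, others 6.6 to 6.721) and Cdc20 (7.507, others 5.104 to 5.723). Among the CL + AX mice, mouse 4 was high for E2f1 (5.311, others 4.649 to 4.829) and mouse 2 for Cdk1 (5.963, others 5.424 to 5.545). Low values were seen for Rrm2 in CL mouse 3 (6.119, others 6.681 to 6.877), Tyms in CL mouse 5 (-1.388, others 1.802 to 2.982) and Foxm1 in NC mouse 4 (2.294, others 4.824 to 5.615).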

How the results depend on the processing

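The calls against NC depended on scaling and on single mice. Those between the CL-fed groups stayed at 0 except without scaling, where Rrm1 and Cdkn2c gave 2 calls in CL + AX against CL + VE. In that comparison 686 of 18193 genes were called without scaling, 99.6% of them higher. With median centring 1122 genes were called there, 0.891% of them higher, and no member. Without scaling, 15 members were called in CL, 23 in CL + AX and 8 in CL + VE against NC. Over all 18193 genes, 5344, 7980 and 2466 were then called in these comparisons, 96%, 97.4% and 88.4% of them higher. Cdk4 turned to 0.2946 and Cdkn2c to 0.60 in CL + AX without scaling. The median levels were then 0.626 (G1/S, CL), 0.866 (G1/S, CL + AX) and 1.97 (G2/M, CL + AX). With trimmed-mean scaling the G1/S level in CL + AX was 0.435, and the lower calls of Ccne2 and Cdk4 there were lost. In CL + AX against NC, 6 members were called with the mean of all probe sets, 6 by the methods' t-test and 7 with no trend in the variance prior. In CL + VE against NC, 4 were called from only the 10 arrays compared and 1, Mcm3, by the methods' t-test. That t-test lost Ccnd1 and Ccnd2 in CL, and Ccnd2, Ccne2, Cdk4, Pcna and Ccna2 in CL + AX. For these settings and for the fits that left out a mouse, the number of all genes called is not given here. Their counts are therefore not read as particular to the members. Leaving out a mouse gave 5 to 9 calls in CL, 5 to 14 in CL + AX and 5 to 8 in CL + VE against NC, and 0 to 0 in the other 3 comparisons. The CL + AX count of 11 dropped to 7 without NC mouse 2, 6 without CL + AX mouse 1, 5 without CL + AX mouse 2 and 7 without CL + AX mouse 4, and the CL count of 6 was at most 9, without NC mouse 5.

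The deviations of mice with the same replicate number had r from -0.2 to 0.312, above 0.1 in 7 of 30 pairs, and best with their own number in 11 of 30, so the numbers were not taken to pair the mice. The replicate block gave 8, 12 and 7 called members against NC and 0 in each comparison between CL-fed groups. Dim probe sets limit what can be seen, since the SE was 1.05 for Tyms and 0.0909 for Pcna.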
